A study of Arabidopsis thaliana with 27 samples.

Results

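In Arabidopsis thaliana, 4 genes were followed across 6 chemical treatments and 4 times, namely 2 beta-glucosidase genes, PYK10 (AT3G09260, also BGLU23) and BGLU44 (AT3G18080), the jacalin-related lectin gene AT1G52000, and AT1G54010, which encodes a GDSL-type lipase-like protein of the group described as myrosinase-associated. They were chosen by name, as 4 of the 416 named genes on the array, and each of them is represented by 2 spots. All 4 had enough values to be tested, among 180 of the 416 genes that did.

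Plants of ecotype Columbia, 28 days old and grown in 12 h of light and 12 h of darkness, were sprayed with an agent and kept at high humidity, and untreated plants served as the reference. The agents were SA (salicylic acid) at 5 mM, its functional analogs INA at 1 mM and BTH at 0.5 mM, BABA (beta-aminobutyric acid) at 10 mM, ET (ethephon, a source of ethylene) at 1 mM and MeJA (methyl jasmonate) at 0.1 mM. Tissue was taken after 2, 5, 10 and 24 h, and is labelled both as leaves and as the whole plant except the root. The material of replicate experiments was pooled before RNA was extracted, so each of the 24 conditions is 1 pooled sample. Of these, 21 were read on 1 array and 3 (INA at both 10 and 24 h, and BTH at 5 h) on 2 arrays of the same RNA, which were averaged. Every array carried treated RNA in Cy5 and untreated RNA in Cy3, with no dye swap and no mock spray described. Effects of dye, spraying or humidity on a comparison with untreated plants therefore cannot be told apart from those of the agent. A dye effect that is the same on all arrays cancels between agents.

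ER bodies are compartments of the endoplasmic reticulum, found in Arabidopsis and its relatives, that store beta-glucosidases, enzymes which split glucose from glucosides. PYK10 is the main ER body enzyme of seedlings and roots, while ER bodies of rosette leaves are known to form after wounding or jasmonate treatment. When cells are broken, PYK10 aggregates with jacalin-related lectins and GDSL lipase-like proteins in what is called the PYK10 complex, and the enzyme is known to act on glucosides that include indole glucosinolates and scopolin. AT1G54010 encodes a lipase-like protein of this complex (GLL23). AT1G52000 belongs to the same lectin family as the lectins of the complex and as the myrosinase-binding proteins. BGLU44 is a beta-glucosidase of another branch of the family, reported to act on beta-mannosides, and is not known as an ER body protein.

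Each value is the log2 of treated over untreated RNA, with 0 set at the median of all spots of an array. A level of 0 is thus that of the median spot, and a negative value is a ratio below it. Folds against untreated plants given below are taken after this centring, unless another zero point is named. The logarithm's base is not given in the sources used here and was taken as 2. If it was natural, all folds below would be larger. The 27 arrays held values for 1204 to 2358 of their 2560 spots, with deposited medians from -0.76 to 1.49. Because the tissue is bulk, fewer cells that express a gene and less RNA per cell cannot be told apart. Of the 6 root markers listed for a check of the tissue, PYK10 alone was among the named genes, and of the 8 leaf photosynthesis markers none was, so the labelled tissue could not be checked against its markers.

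The 2 spots of each gene ran together over the arrays, with a correlation of 0.981 for PYK10, 0.996 for BGLU44, 0.983 for AT1G52000 and 0.986 for AT1G54010. Their median absolute difference was between 0.095 (BGLU44) and 0.185 (AT1G52000) on the log2 scale. Arrays repeated with the same RNA were compared as well. PYK10 differed by 0.08, 0.95 and 0.24 between the 2 arrays of INA 10 h, INA 24 h and BTH 5 h. BGLU44 differed by 0.15, 0.39 and 0.26 on the same pairs. AT1G54010 differed by 0.54, 0.81 and 0.91, which is above the median differences of all tested genes (0.33, 0.40 and 0.41). AT1G52000 had no value at INA 10 h and differed by 0.48 and 0.34 on the other pairs. Differences of this size between single conditions are within the technical spread.

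The first comparison asked how each agent changed the 4 transcripts against untreated plants. After MeJA, 3 of the 4 were higher than in untreated plants: AT1G52000 by 6.01-fold, AT1G54010 by 5.80-fold and PYK10 by 2.48-fold, as means over the 4 times. BGLU44 went the other way and was 3.45-fold lower. PYK10 and AT1G52000 each had lower means under BTH, SA and INA on median-centred values. Several of these lower means lost their call with another zero point, as given below. The most extreme mean of BGLU44 was under BTH, 10.7-fold lower on the same scale. AT1G54010 did not fall significantly after any agent. Agent means were tested in an additive model of agent and time fitted with limma to all 180 genes, with Benjamini-Hochberg adjusted p-values under 0.05 called. The standard errors rest on the spread that agent and time leave among pooled single samples, and do not hold the spread between separately treated plants.

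PYK10, the ER body beta-glucosidase, had values of -0.05, 1.72, 1.52 and 2.06 at 2, 5, 10 and 24 h after MeJA. It was at the level of the median spot at 2 h and 3.30-fold, 2.86-fold and 4.17-fold higher at the later times, when it ranked 13 of 179, 7 of 177 and 12 of 169 genes with a value. The mean over the 4 times was 1.31 ± 0.36 (SE, adjusted p = 0.0038, limma). No other agent had a PYK10 mean above 0 on median-centred values. Over the alternatives tried, the ET mean of PYK10 reached 0.51 at most, without a call.

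After SA, the values of PYK10 were -1.24, -1.21, -1.55 and -0.80. INA gave -0.996, -1.93, -1.08 and -0.74. With BTH they were -0.19, -0.69, -2.40 and -2.30, so that the transcript was 5.26-fold lower at 10 h and 4.94-fold lower at 24 h. All 12 values under these 3 agents were below 0 on median-centred values, and those of BTH at the later times were the lowest of PYK10 in the series. Without centring, SA at 24 h (0.23) and BTH at 2 h (0.42) were above 0. The means were -1.20 under SA (adjusted p = 0.0048), -1.19 under INA (adjusted p = 0.0065) and -1.40 under BTH (adjusted p = 0.0019), each ± 0.36 (limma). The BTH mean rested partly on 10 h, without which it was -1.06 (adjusted p = 0.052), and the INA mean on 5 h, without which it was -0.94 (adjusted p = 0.075, limma).

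After BABA, PYK10 had values of 0.09, -0.50, -1.31 and -0.88, and its mean of -0.65 did not pass the test (adjusted p = 0.11, limma). It passed when the 2 h conditions were left out (-0.89, adjusted p = 0.029, limma). After ET, the PYK10 values were -0.54, -0.78, -0.69 and 1.50, with a mean of -0.13 (adjusted p = 0.77, limma). The ET value at 24 h stood apart from the 3 earlier ones and came from 1 array without a repeat, so it had no replicate check.

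AT1G52000, the jacalin-related lectin gene, had values of 3.47, 2.27, 2.34 and 2.28 at 2, 5, 10 and 24 h after MeJA. These are 11.1-fold, 4.82-fold, 5.05-fold and 4.85-fold above untreated plants, and the gene ranked 3, 7, 4 and 9 from the top at the 4 times. Unlike PYK10, it was already high at 2 h. The mean was 2.59 ± 0.26 (SE, adjusted p = 2.4e-08, limma), the highest but 3 of the 180 genes.

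Under the other 5 agents all 19 measured values of AT1G52000 were below 0 on median-centred values. Without centring, SA at 24 h (0.45) and ET at 2 h (0.57) were above 0. The median-centred values were as follows. SA gave -1.95, -1.21, -0.86 and -0.58, and INA gave -1.34, -1.27 and -0.40 at 2, 5 and 24 h. BTH gave -1.52, -1.67, -2.63 and -2.08, while BABA gave -1.13, -2.93, -2.73 and -1.45. ET gave -0.62, -0.99, -1.11 and -0.82. The lowest value was that of BABA at 5 h, 7.60-fold below untreated plants, and the highest was INA at 24 h. All 5 means passed the test (limma), at -1.15 for SA (adjusted p = 0.00043), -1.10 for INA (adjusted p = 0.0036), -1.98 for BTH (adjusted p = 8.3e-07), -2.06 for BABA (adjusted p = 3.1e-07) and -0.89 for ET (adjusted p = 0.0064). The mean of INA was estimated from 3 times, with a standard error of 0.31 in place of 0.26.

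AT1G54010, the GDSL lipase-like gene, had values of 1.85, 2.76, 2.60 and 2.94 at 2, 5, 10 and 24 h after MeJA. These correspond to 3.60-fold, 6.75-fold, 6.07-fold and 7.68-fold more transcript, and ranks of 9, 5, 2 and 4 from the top. The mean was 2.54 ± 0.23 (SE, adjusted p = 4.5e-09, limma). BABA also gave a higher mean, 0.72 (adjusted p = 0.0078, limma), from values of 0.70, 0.19, 0.43 and 1.57. This call rested on 24 h, without which the mean was 0.44 (adjusted p = 0.16, limma). Under ET the values were -0.52, 0.41, 0.52 and 1.51, and the mean of 0.48 did not pass the test (adjusted p = 0.078, limma), but it was 0.81 and passed without the 2 h conditions (adjusted p = 0.0066, limma).

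With SA the values of AT1G54010 were -0.74, -0.73, -0.01 and 0.20, and with INA -0.52, 0.00, -0.01 and 0.64. BTH gave 0.66, -0.90, 0.76 and 0.25. None of these 3 means passed the test (limma): SA was at -0.32 (adjusted p = 0.22), INA at 0.03 (adjusted p = 0.92) and BTH at 0.19 (adjusted p = 0.52). The 3 agents that lowered PYK10 and the lectin gene thus gave no called change in AT1G54010 on this scale. The value of BTH at 5 h came from the pair of arrays that differed by 0.91.

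BGLU44, the beta-glucosidase outside the ER body group, had values of -4.04, -2.49, -3.22 and -3.93 at 2, 5, 10 and 24 h after BTH. After centring, the transcript was 16.4-fold, 5.60-fold, 9.31-fold and 15.2-fold lower than in untreated plants and ranked 1, 4, 3 and 3 from the bottom. Without centring, the 4 values were -3.42, -2.55, -2.67 and -3.79. Its mean of -3.42 ± 0.28 (SE, adjusted p = 1.8e-09, limma) was the lowest of the 180 genes under BTH. After MeJA, the values were -3.07, 0.27, -1.14 and -3.20, so that the gene was 8.40-fold lower at 2 h, near the median spot at 5 h and 9.22-fold lower at 24 h. The MeJA mean was -1.79 (adjusted p = 1.9e-05, limma) and averages times that differed widely. With MeJA fitted alone, the same mean had an adjusted p of 0.052 (limma).

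ET gave BGLU44 values of -2.45, -0.84, -2.32 and -1.61, with a mean of -1.81 (adjusted p = 1.1e-05, limma). SA gave -1.85, -0.68, -0.56 and -0.57, with a mean of -0.91 (adjusted p = 0.0066, limma) that did not pass without the 2 h conditions (-0.60, adjusted p = 0.15, limma). All values of these agents and of BTH were below 0 on median-centred values. Without centring, SA at 10 h (0.24) and at 24 h (0.46) was above 0. Under INA, BGLU44 was at -0.88, 0.12, 0.13 and -0.77, and under BABA at -0.98, 1.21, -0.38 and -1.60. Neither the INA mean of -0.35 (adjusted p = 0.29) nor the BABA mean of -0.44 (adjusted p = 0.17) passed the test (limma). BABA at 5 h was the highest value of BGLU44 in the series, and without the 5 h conditions the BABA mean was -0.99 and passed (adjusted p = 0.0057, limma).

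**Figure D1:**
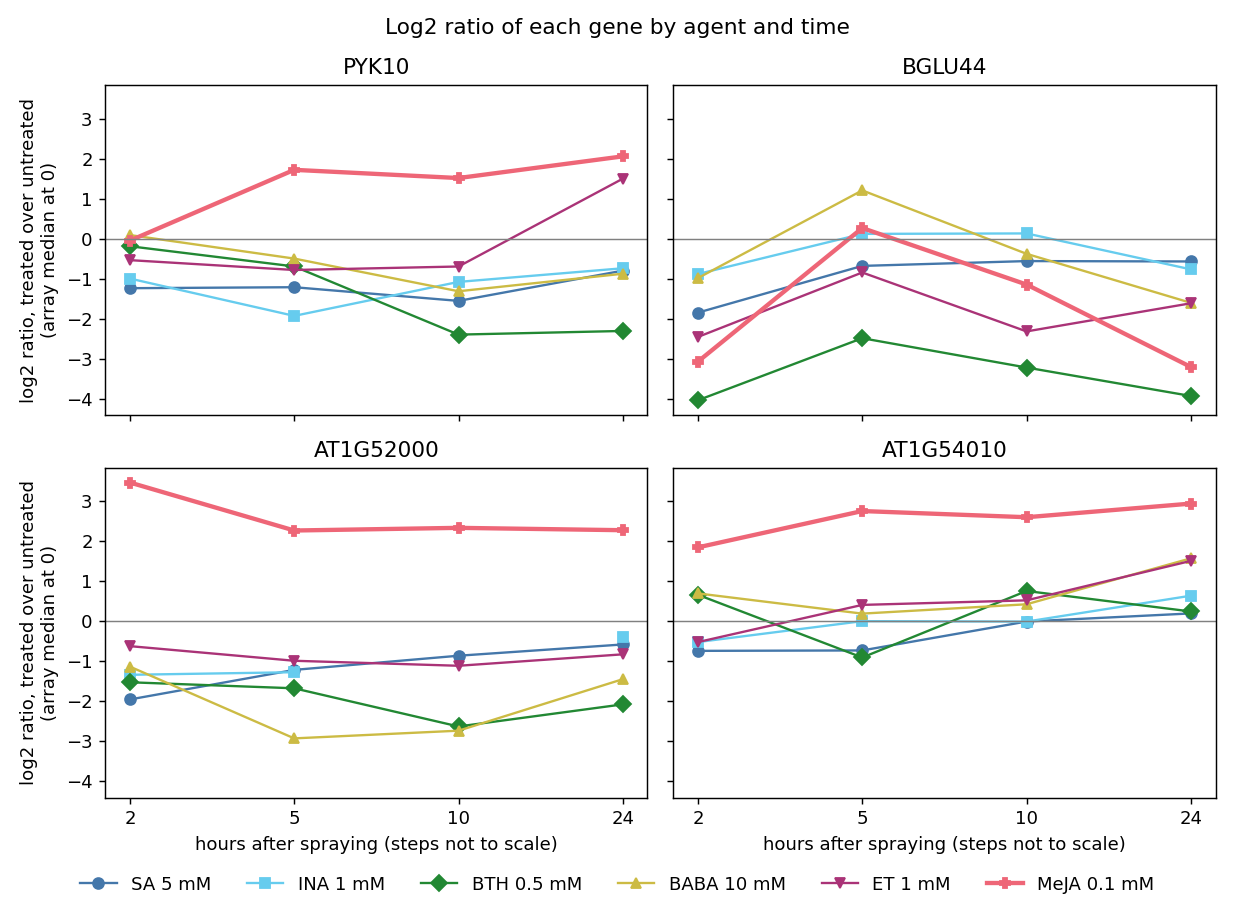
Log2 ratio to untreated plants (vertical axis, 0 is the median spot of each array) against hours after spraying for PYK10, BGLU44, AT1G52000 and AT1G54010, with 1 line per agent and 1 point per condition. MeJA lies above all other agents at every time for AT1G52000 and AT1G54010, and BTH lies lowest for BGLU44 at every time.

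Calls were common among all genes on this array of stress-related genes. MeJA called all 4 members, 3 higher and 1 lower, where 46.1% of the 180 genes were called, 22.2% higher and 23.9% lower. BTH called 3 of the 4, all lower, against 60% of genes called and 28.3% called lower. SA also called 3 as lower (72.8% of genes called, 35.6% lower). INA called PYK10 and AT1G52000 as lower (60% called, 27.2% lower). BABA called AT1G54010 as higher and AT1G52000 as lower (66.7% called, 33.9% higher and 32.8% lower). ET called AT1G52000 and BGLU44 as lower (53.9% called, 21.7% lower). A call against untreated plants was therefore no rare event for a gene of this array.

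Several of the lower calls depend on where 0 is set. With the alpha-tubulin gene TUA5 as the zero point, the median of all tested genes moved up by different amounts, to 1.22 for SA, 0.92 for INA and 1.41 for BTH. It was at 0.30 for BABA, 0.48 for ET and 0.89 for MeJA. The higher and lower calls went from 67 and 64 to 125 and 9 under SA, from 59 and 49 to 118 and 14 under INA, and from 57 and 51 to 145 and 9 under BTH. They went from 61 and 59 to 71 and 43 under BABA, from 58 and 39 to 78 and 17 under ET, and from 40 and 43 to 124 and 8 under MeJA. On that scale, PYK10 was at -0.036 under SA, -0.30 under INA and -0.035 under BTH, and none of these passed the test. AT1G52000 was then at 0.012 under SA, -0.18 under INA and -0.52 under ET, again without a call, and BGLU44 under SA was at 0.25. AT1G54010, by contrast, was then higher under SA (0.84), INA (0.91), BTH (1.55) and ET (0.85), and these 4 means passed the test. PYK10 under SA, INA and BTH, and AT1G52000 under SA and INA, were thus low relative to the other genes of the array. On the TUA5 scale those other genes were themselves high. Without any centring, PYK10 under SA (-0.41) and INA (-0.58) kept its sign but lost its call. So did AT1G52000 under SA (-0.36), INA (-0.52) and ET (-0.24), while PYK10 under BTH kept both. The 3 higher means under MeJA passed the test on all 3 scales. So did the lower means of BGLU44 under BTH, ET and MeJA, and those of AT1G52000 under BTH and BABA. The sizes of these lower means depended on the processing. Over all alternatives tried, the BGLU44 value nearest 0 was -2.06 under BTH, -1.165 under ET and -0.86 under MeJA. For AT1G52000 it was -0.61 under BTH and -1.57 under BABA.

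**Figure D2:**
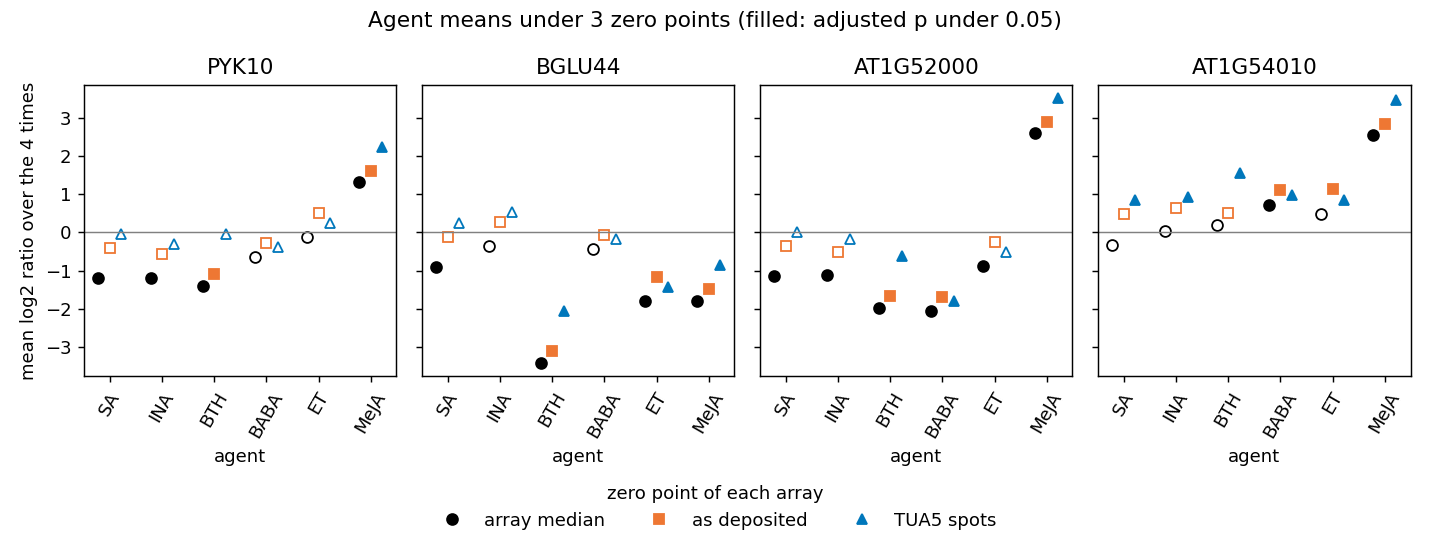
Mean log2 ratio over 4 times for each gene and agent, with 0 set at the array's median spot, at the deposited zero point, or at TUA5. The MeJA means of PYK10, AT1G52000 and AT1G54010 stay above 0 at all 3 zero points, while the SA, INA and BTH means of PYK10 come close to 0 when TUA5 is the zero point.

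The next comparison set MeJA against each other agent, where a shared dye effect and the level of untreated plants play no part in so far as they are the same on all arrays. Doses differ between agents, from 0.1 mM of MeJA to 10 mM of BABA. PYK10, AT1G52000 and AT1G54010 were each higher under MeJA than under every one of the other 5 agents. BGLU44 was higher under MeJA than under BTH, lower than under INA and BABA, and not detectably different from SA or ET.

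For the lectin gene AT1G52000, MeJA exceeded ET by 3.47 and BABA by 4.65 on the log2 scale, the smallest and the largest of its 5 differences. Every one of its 4 MeJA values lay above all 19 values of the other agents, with a gap from -0.40 to 2.27. Against the mean of the other 5 agents, the difference was 4.02 ± 0.28 (SE, adjusted p = 1.3e-10, limma), or 16.2-fold, the largest but 1 of the 180 genes. An exact two-sided permutation of the agents within times gave p = 0.000926 for this gene, the smallest its 1080 assignments allow. The agents were permuted independently at each time, so this test treats the 4 times of an agent as separate units. The same limit holds for the permutation p-values of the other genes.

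For AT1G54010, the differences from the other agents ran from 1.81 (BABA, adjusted p = 5.6e-05, limma) to 2.86 (SA). On median-centred values its 4 MeJA values also lay above all 20 others, but by a narrow margin. The lowest was 1.85 at 2 h, and the highest of the others was 1.57, under BABA at 24 h. Without centring these 2 values were 1.79 and 2.39, so the separation depends on the zero point. The mean difference from the other 5 agents was 2.32 ± 0.25 (SE, adjusted p = 1.2e-07, limma), and the exact two-sided permutation p was 0.000772, the smallest its 1296 assignments allow. Of the 180 genes, 5 or 2.78% had all MeJA values above all others on median-centred values. These were AT1G52000, AT1G54010, AT1G66100, AT3G28220 and FAMT.

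For PYK10, MeJA exceeded SA by 2.51 (adjusted p = 0.00020), INA by 2.50 (adjusted p = 0.00032), BTH by 2.71 (adjusted p = 0.00027) and BABA by 1.96 (adjusted p = 0.0021), each ± 0.51 (limma). The difference from ET was smaller, 1.44 ± 0.51 (SE, adjusted p = 0.044, limma), and it lost its call in 6 alternatives. Without the 5 h conditions it was 1.09 (adjusted p = 0.26), and without the 10 h conditions 1.18 (adjusted p = 0.24, limma). Of the 4 MeJA values 3 lay above all 20 others, the value at 2 h lay among them, and ET at 24 h was the highest of the others. Against the mean of the other 5 agents the difference was 2.22 ± 0.39 (SE, adjusted p = 5.3e-05, limma), with an exact two-sided permutation p of 0.00154.

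For BGLU44, the difference between MeJA and the mean of the others was -0.40 ± 0.31 (SE, adjusted p = 0.28, limma), with a 95% interval from -1.05 to 0.24 and an exact two-sided permutation p of 0.573. Without the 5 h conditions it was -0.81 (adjusted p = 0.044, limma). The difference from SA was -0.88 (adjusted p = 0.065, limma), and -1.48 without the 5 h conditions (adjusted p = 0.0051, limma). MeJA and ET differed by 0.02, with an interval from -0.81 to 0.85, so a difference of that size in either direction was not excluded.

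MeJA was below INA for BGLU44 by 1.44 (adjusted p = 0.0052) and below BABA by 1.35 (adjusted p = 0.0061), and above BTH by 1.63 (adjusted p = 0.0032, limma). Without the 2 h conditions the first 2 were -1.19 (adjusted p = 0.066) and -1.10 (adjusted p = 0.070, limma). The difference from BABA was -0.69 with TUA5 as the zero point (adjusted p = 0.18, limma), and none of the 3 passed with no time terms or with the 2 agents fitted alone. The MeJA values of this gene lay inside the range of the others, which spanned -4.04 to 1.21. BTH gave the lowest mean of BGLU44, below SA by 2.50 ± 0.40 (adjusted p = 3.9e-05), below INA by 3.07 (adjusted p = 5.6e-06) and below ET by 1.61 (adjusted p = 0.0050, limma). The difference from ET depended on the scale and the model: it was -0.62 with TUA5 as the zero point (adjusted p = 0.24), and at -1.61 it did not pass with no time terms (adjusted p = 0.12) or with the 2 agents fitted alone (adjusted p = 0.090, limma). BABA exceeded BTH by 2.98 (adjusted p = 3.1e-06, limma).

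The share of all genes called in these comparisons was 58.3% for MeJA against SA, 50% against INA, 34.4% against BTH, 58.3% against BABA and 21.1% against ET, and 52.8% against the mean of the other 5. Called higher under MeJA, as PYK10, AT1G52000 and AT1G54010 were in each of these, were 26.1%, 23.9%, 16.7%, 26.7% and 8.33% of genes, and 23.9% against the mean of the other 5. With TUA5 as the zero point the split of calls in MeJA against ET turned from 15 higher and 23 lower to 32 and 9. BTH differed from SA in 40.6% of genes, from INA in 33.9%, from ET in 23.9% and from BABA in 46.7%. The 5 contrasts of MeJA share its 4 conditions and are not independent of each other.

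Ordered by their means, the agents ran from BTH through SA, INA, BABA and ET to MeJA for PYK10, and of the 5 steps between neighbours only that from ET to MeJA passed the test. Without MeJA, 0 of the 10 pairs of agents differed for PYK10 at an adjusted p under 0.05 (limma), and 3 at an unadjusted p under 0.05. For AT1G52000 the order was BABA, BTH, SA, INA, ET and MeJA, again with a call for the last step only. For AT1G54010 it was SA, INA, BTH, ET, BABA and MeJA, with the step from BABA to MeJA called. BGLU44 had a different order, BTH, ET, MeJA, SA, BABA and INA, and the called step was the first one, from BTH to ET, which lost its call in the 3 alternatives given above. Of the 15 pairs of agents, 5 differed for PYK10, 7 for each of AT1G52000 and AT1G54010, and 9 for BGLU44. The pairs not mentioned so far called 6.67% of genes for INA against SA, 38.9% for BABA against SA, 17.8% for BABA against INA, 56.7% for ET against SA, 34.4% for ET against INA and 46.1% for BABA against ET.

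**Figure D3:**
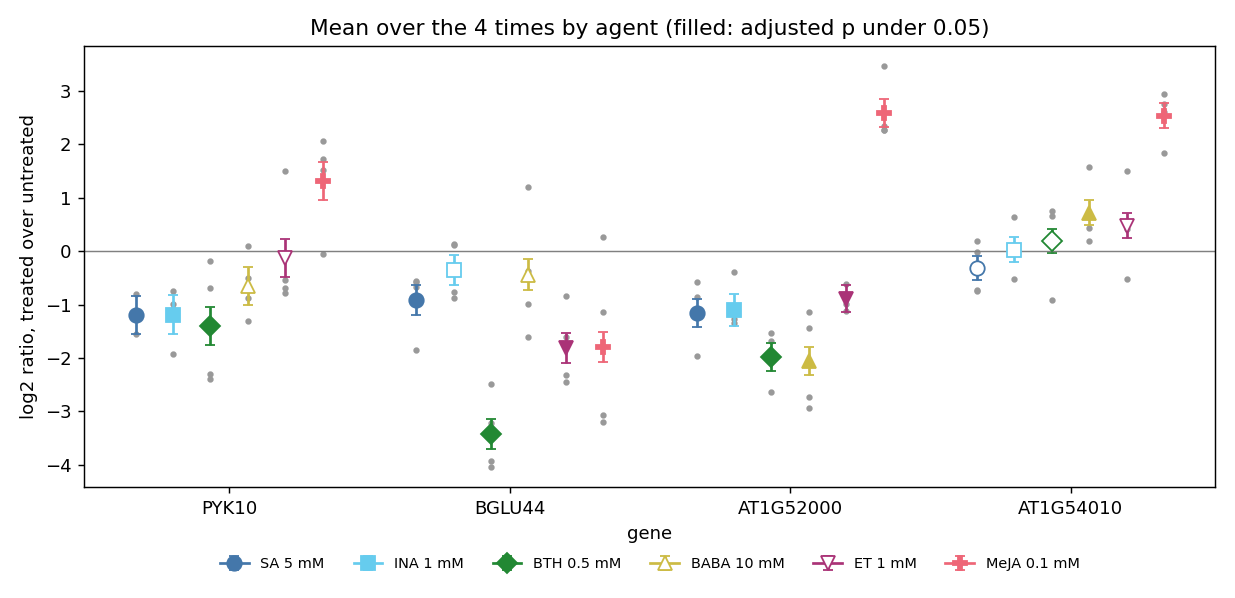
Mean log2 ratio to untreated plants over the 4 times (3 for AT1G52000 under INA) for each agent, with the genes side by side. Bars are the standard error of the fit, grey dots are the single conditions, and filled markers have an adjusted p under 0.05 (limma). On median-centred values, MeJA is the only agent with a mean above 0 for PYK10 (1.31) and AT1G52000 (2.59), and BTH has the lowest mean for BGLU44 (-3.42).

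Across the conditions, PYK10, the lectin gene and the lipase-like gene varied together, and BGLU44 varied apart from them. The Pearson correlation over 24 conditions was 0.740 between PYK10 and AT1G54010, and over 23 conditions it was 0.706 between PYK10 and AT1G52000 and 0.722 between AT1G52000 and AT1G54010. Without the 4 MeJA conditions these were 0.337, 0.388 and 0.033, so most of the likeness came from MeJA. BGLU44 gave 0.014 with PYK10, -0.098 with AT1G52000 and -0.119 with AT1G54010. The conditions share arrays, dye orientation and possibly untreated RNA, and these values are descriptions.

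The difference between 2 genes on the same array does not depend on the zero point. PYK10 minus BGLU44 was 1.45 to 5.26 under MeJA, 0.82 to 3.85 under BTH and 0.06 to 3.11 under ET, and so above 0 at all 4 times of these agents. Under INA it ranged from -2.05 to 0.03, under SA from -0.99 to 0.61 and under BABA from -1.70 to 1.07. PYK10 thus stood above BGLU44 at every time of MeJA, BTH and ET, narrowly so under ET at 5 h, and this difference was not tested. Which gene moved depends on the zero point. On median-centred values the means of PYK10 and BGLU44 were 1.31 and -1.79 under MeJA, and -1.40 and -3.42 under BTH. Single MeJA times departed from this, with PYK10 at -0.05 at 2 h and BGLU44 at 0.27 at 5 h. AT1G52000 minus AT1G54010 was -0.67 to 1.62 under MeJA: it was 1.62 at 2 h and -0.49, -0.27 and -0.67 at 5, 10 and 24 h. Under the other 5 agents it was below 0 at every measured time, with means from -2.78 for BABA to -0.83 for SA. MeJA at 2 h was thus the only measured condition in which the lectin gene stood above the lipase-like gene.

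**Figure D4:**
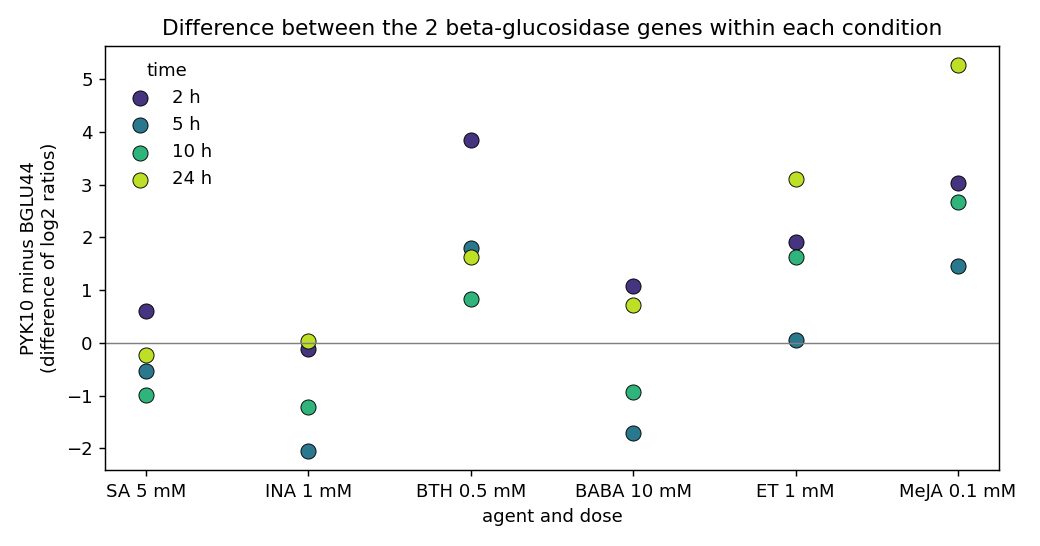
Difference between the log2 ratios of PYK10 and BGLU44 on the same arrays, for each agent and time, which does not depend on the zero point of an array. The MeJA, BTH and ET points all lie above 0, and the highest is MeJA at 24 h (5.26).

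Time was compared next, as late (10 and 24 h) against early (2 and 5 h). AT1G54010 was higher late than early, by 0.69 ± 0.22 on average over the 6 agents (SE, adjusted p = 0.035, limma), in a comparison that called 25% of all tested genes, and 8.89% of all tested genes as higher late. Its mean over the agents was 0.24 and 0.29 at the early times and 0.72 and 1.18 at the late ones, and 24 h was its highest time under 5 of the 6 agents. The call was lost in 3 of the alternatives tried, with differences of 0.57, 0.67 and 0.74. One of these left out replicate array 1 of the 3 conditions with 2 arrays (0.67, adjusted p = 0.054, limma). The other 3 genes did not pass this test: PYK10 differed by -0.03, AT1G52000 by 0.04 and BGLU44 by -0.29.

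BGLU44 had a time pattern that the split into early and late does not show. It was higher at 5 h than at 2 h under all 6 agents, by 1.00 to 3.34 with a mean of 1.81 (SD 0.85, n = 6 agents), a pattern shared by 17 of the 180 genes or 9.44%. Over the agents, its mean went from -2.21 to -0.40 between 2 and 5 h, and was -1.25 after 10 h and -1.95 after 24 h. On median-centred values PYK10 was higher at 24 h than at 10 h under all 6 agents, by 0.09 to 2.20, which was true of 30 genes or 16.7%. Without centring it was lower at 24 h than at 10 h under INA (-0.89 against -0.20) and BTH (-2.16 against -1.85). All of the median-centred PYK10 steps except that under ET lie within the range of its differences between repeat arrays (0.08 to 0.95). The ET step, 2.20, rests on a 24 h value from 1 array without a repeat.

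Within agents, PYK10 had its lowest values late under BTH and its high values from 5 h on under MeJA. Late minus early was -1.91 ± 0.62 under BTH, the lowest of all 180 genes, of which 0% were called, and did not pass after adjustment (adjusted p = 0.30, limma). Whether the time course under MeJA differed from that of the other agents was tested as an interaction. For PYK10 the interaction was 1.18 ± 0.68 (adjusted p = 0.97, limma), and 0 of the 180 genes (0%) were called by limma, with 7 at an unadjusted p under 0.05. A difference in time course was not detectable for any of the 4 genes.

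Other genes of ER bodies and of the PYK10 complex were examined from a list of 20 genes, of which 8 were on the array. Of these, 4 could be tested: PYK10, AT1G52000, AT1G54010 and BGLU22, a close homolog of PYK10. AT1G52000 shares a lectin family with the complex and was not shown here to be part of it. On median-centred values all 4 were higher under MeJA, with a median of 1.92 against -0.04 for all genes, of which 22.2% were called higher. SA, INA and BTH each lowered 3 of the 4, where 35.6%, 27.2% and 28.3% of all genes were called lower. BABA raised 1 and lowered 2 (33.9% and 32.8% of all genes), and ET lowered 1 (21.7%). Several of the lower calls depend on the zero point, as given above for PYK10 and AT1G52000. Since 3 of these 4 are genes already described, BGLU22 is the only further test.

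BGLU22 had values of -0.03, 1.04, 1.08 and 1.27 at 2, 5, 10 and 24 h after MeJA, at the median spot first and higher from 5 h on, as PYK10 was. Its mean was 0.84 ± 0.18 (SE, adjusted p = 0.00043, limma), and MeJA exceeded the mean of the other agents by 1.27 ± 0.19. It was lower under SA at -0.48 (adjusted p = 0.019), INA at -0.56 (adjusted p = 0.0090), BTH at -0.45 (adjusted p = 0.030) and BABA at -0.70 (adjusted p = 0.0013, limma), with ET at 0.03. These 4 lower calls held on the median-centred scale alone: with TUA5 as the zero point BGLU22 was higher under SA (0.68) and BTH (0.91) and not called under INA (0.33) or BABA (-0.44), and none of the 4 was called without centring. Its MeJA mean passed on both of those scales, at 1.76 and 1.13. BGLU21, BGLU22 and PYK10 are close homologs, and the specificity of their spots was not tested.

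The remaining 4 genes of the list had too few values for a test and are described by their values. BGLU21, another homolog of PYK10, was at 0.20, 0.69, 0.82 and 1.25 after MeJA and below 0 in all 11 values under SA, INA, BTH and BABA. JAL34, a lectin gene of the complex, was at 1.88, 2.83, 2.00 and 1.49 after MeJA, while its other values reached 0.57 at most. JAL33, a related lectin gene, was between 0.48 and 0.98 in its 3 MeJA values. NAI2, which is needed for ER bodies to form, was at -0.09, 1.54, 1.27 and -0.01 after MeJA, and had its lowest values under SA at 2 h (-1.96) and BTH at 10 h (-1.81). The 24 h value of ET was also the highest ET value of several of these genes: it was 1.50 for PYK10, 0.90 for BGLU21, 0.71 for BGLU22, 1.51 for AT1G54010 and 0.57 for JAL34, but -0.82 for AT1G52000. It is 1 array, and the pattern has no replicate check.

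**Figure D5:**
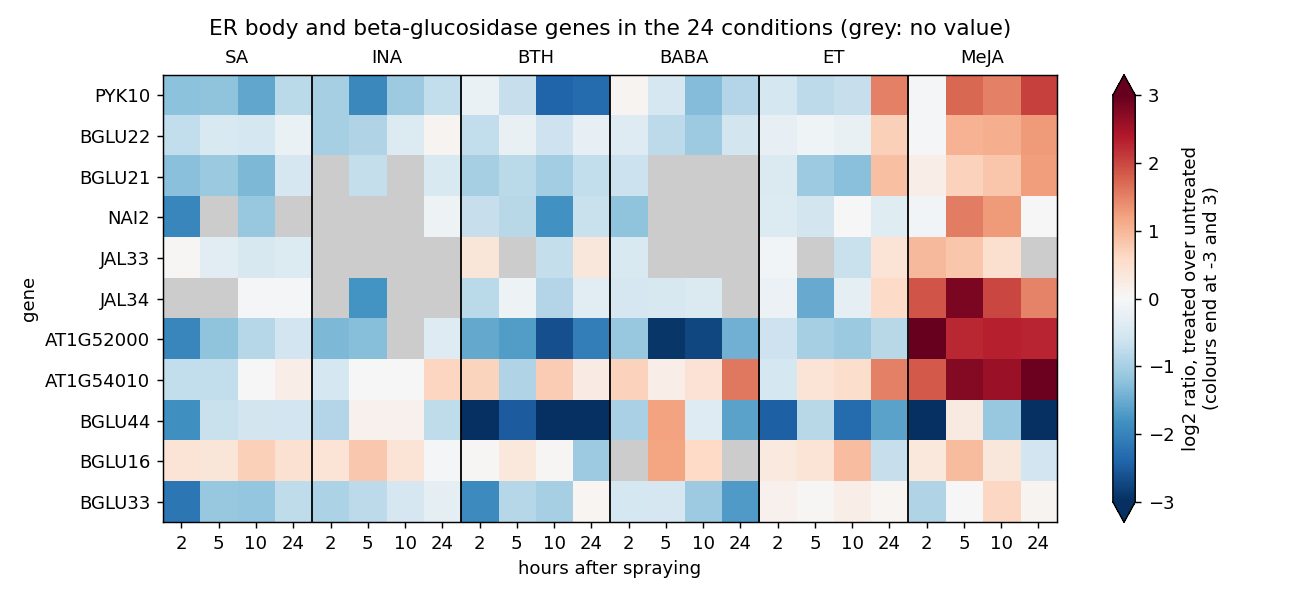
Heat map of log2 ratios to untreated plants for 11 genes of ER bodies, the PYK10 complex and the beta-glucosidase and lectin families (rows) in 24 conditions (columns, by agent and time), with missing values in grey. The MeJA columns are high for JAL34, AT1G52000 and AT1G54010, and from 5 h on for PYK10, BGLU21 and BGLU22. BGLU44 is low in the BTH columns.

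Within the beta-glucosidase family, 6 genes were on the array and 4 were tested, namely PYK10, BGLU22, BGLU33 and BGLU44. BGLU33 was lower under SA at -1.31, INA at -0.63, BTH at -0.93 and BABA at -0.95, and did not pass the test under ET at 0.10 or MeJA at -0.05 (limma). None of its 4 lower calls held without centring, BABA alone held with TUA5 as the zero point (-0.69), and on that scale BGLU33 was higher under MeJA (0.87). On median-centred values MeJA thus gave 2 higher, 1 lower and 1 not called among the 4, where 22.2% of all genes were called higher and 23.9% lower. BGLU16 had too few values for a test and was at 0.31, 0.94, 0.33 and -0.58 after MeJA, with values from 0.35 to 0.72 under SA, -0.03 to 0.80 under INA and -1.08 to 0.31 under BTH. Its values were between -0.69 and 0.93 under ET, and 0.60 and 1.18 in the 2 measured BABA conditions. No myrosinase of a list of 15 was among the named genes. Of 22 glucosinolate genes, AT2G25450 alone was on the array, the gene of an enzyme that hydroxylates side chains of aliphatic glucosinolates, and it was lower under all 6 agents on median-centred values, from -0.59 under MeJA to -2.06 under BTH, with the BTH call alone holding on all 3 scales. Of 23 jasmonate genes, 6 were on the array and 2 were tested. These were AT5G05600, which encodes an enzyme that hydroxylates jasmonic acid, and FAMT. Both were higher under MeJA, at 3.62 and 2.75, on all 3 scales. Neither responded to MeJA alone. AT5G05600 was also higher under SA (2.84), INA (2.45), BABA (2.43) and ET (2.64), and MeJA did not pass the test against SA (adjusted p = 0.073) or ET (adjusted p = 0.059, limma) for this gene. FAMT was also higher under SA (0.84), INA (0.66), BTH (0.61) and ET (0.79), and MeJA exceeded each of the other 5 agents for it (limma). THI2.1, JMT, AT2G38240 and PDF1.2 had too few values for a test. THI2.1 was at 0.14 to 0.55 under MeJA and below 0 in all its other values. JMT was at 0.29 to 1.20 under MeJA and 0.09 to 0.94 under ET. AT2G38240 was at 2.7 and 5.9 under MeJA, and above 0 in every value under SA, INA, BTH and ET. PDF1.2 was at 0.57 and 2.9 under MeJA, 0.28 to 3.5 under ET, and 2.6 and 4.5 under BABA.

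For each member, the tested genes with the most similar values over the conditions were looked up among 176 others by Pearson correlation, as a description. For PYK10 they were BGLU22 (0.829, n = 24), AT4G18030 (0.686) and AT3G28220 (0.661), and the least similar was AT4G26910 (-0.783). AT1G52000 was most like AT3G28220 (0.950, n = 23), FAMT (0.808) and BGLU22 (0.769). AT1G54010 was most like BGLU22 (0.764), AT1G62660 (0.697) and AT2G05920 (0.657). BGLU22 was thus among the 3 most similar genes of PYK10, AT1G52000 and AT1G54010, with correlations of 0.557, 0.574 and 0.336 when MeJA was left out.

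BGLU44 was most like AT3G62550 (0.868, n = 22), CCL (0.829) and AT3G19010 (0.772), and least like AT5G18380 (-0.845). These correlations did not rest on MeJA, since without it they were 0.900, 0.833, 0.789 and -0.864. AT3G62550 and CCL shared the low values of BGLU44 under 3 agents, with means under BTH, ET and MeJA of -2.75, -2.21 and -2.97 for AT3G62550 and of -1.66, -1.90 and -1.92 for CCL. None of the genes most like BGLU44 was among those most like the other 3 members.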

How the data were processed

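Transcripts were measured on 27 spotted arrays with 2 dyes, of which 24 conditions remained after repeat arrays of the same RNA were averaged. The values deposited by the authors are log2 ratios per spot. That base is an assumption, with the logarithm's base, background correction, spot filter and normalization all not given in the sources used here. The table holds no intensities, which leaves signal over background unknown, and the number of samples limits the precision. Groups, doses and times were taken from the titles. Samples of the jasmonate group are titled JA, with MeJA in their source names. The first INA array at 10 h has a source name of 2 h for its second channel, and its title was followed.

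Each array was centred on its median, since 23 of the 27 medians lay more than 0.2 from 0, and the spots of a gene were averaged. Names came from the platform annotation, with symbols from the RefSeq table of TAIR10.1, in which 415 of 416 genes matched. The array's genome build is not stated, so no coordinates are given. Genes were tested with values in at least 20 of 24 conditions and 3 of the 4 times of each agent. The model had a mean per agent and time terms that sum to 0, fitted by least squares in R 4.3.3 with variances moderated by limma 3.58.1 (prior 8.16 and residual 15 degrees of freedom). Late against early used a mean per agent and phase. All tests were two-sided, with Benjamini-Hochberg adjustment across the 180 genes within a comparison. The procedure was tested on simulated data.

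The members, gene lists and tests were chosen with earlier results of these data known. Named genes are the 4 members, genes of the lists and of the beta-glucosidase, jacalin, myrosinase and GDSL families on the array, and, for each member, the 3 most and the 1 least correlated genes. The alternatives were other centrings and scalings, filters, single spots, each replicate array or time left out, a replicate block, no time terms, agents fitted alone, and another variance model. Arrays with the same replicate number of different conditions share only a number. A closing line that held no values (1 line) was left out.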

Additional observations from a re-analysis of the deposited data

Results flagged for a closer look

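AT1G54010 differed between the early and the late times over all agents, by a log2 difference of 0.69 (late minus early, adjusted p = 0.035, limma), and was the only one of the 4 genes to do so. The same comparison called 25% of all tested genes. The call was lost without centring (adjusted p = 0.14), with arrays centred and scaled (adjusted p = 0.12) and without replicate 1 (adjusted p = 0.054, limma). The outlier test of single samples could not be applied, because no condition has more than 2 arrays.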

How the results depend on the processing

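Each of 78 results was recomputed under up to 20 alternatives. The higher means of AT1G52000 and AT1G54010 under MeJA, against untreated plants and against each other agent, kept direction and call in all of them, as did PYK10 under MeJA against untreated plants, SA, INA, BTH and BABA. All 78 kept their call with all 27 arrays and a replicate block (PYK10 under BTH -1.32, BGLU44 under BTH -3.45), with the mean of the middle spots as the zero point, a looser filter, the first spot, another variance model, without replicate 2 and without the first INA 10 h array. Where replicate 1 or 2 was left out, late minus early of AT1G54010 was 0.67 to 0.71, and it lost its call without replicate 1. Values below are log2 differences. Except where fewer samples enter a fit, the cause of a change was not tested.

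With TUA5 as the zero point, BGLU44 (0.25), AT1G52000 (0.012) and AT1G54010 (0.84) turned above 0 under SA. Calls were lost for PYK10 under SA (-0.036), INA (-0.30) and BTH (-0.035), for AT1G52000 under INA (-0.18) and ET (-0.52), and for BGLU44 in MeJA against BABA (-0.69) and BTH against ET (-0.62). Calls were gained for AT1G54010 under INA (0.91), BTH (1.55) and ET (0.85) and for BGLU44 in MeJA against SA (-1.12). Genes called went from 83 to 132 for MeJA against untreated, from 43 to 95 for BTH against ET (94 higher, 1 lower) and from 84 to 127 for BABA against BTH (10 higher, 117 lower). Splits of higher and lower calls became 78 and 27 for MeJA against BABA, 12 and 55 for MeJA against BTH, 52 and 10 for BTH against INA and 35 and 11 for late against early.

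Without centring, calls were lost for PYK10 under SA (-0.41), under INA (-0.58) and in MeJA against ET (1.09), for BGLU44 under SA (-0.12), for AT1G52000 under SA (-0.36), INA (-0.52) and ET (-0.24), and for late against early of AT1G54010 (0.74). They were gained for AT1G54010 under ET (1.12) and BGLU44 in MeJA against SA (-1.37). Genes called were 49, 23, 66 and 22 for MeJA against INA, BTH, BABA and ET, 48 and 26 for BTH against SA and INA, 36 for BABA against BTH and 16 for late against early. Higher and lower calls were 97 and 14 under SA, 86 and 15 under INA, 60 and 27 under BTH, 69 and 36 under BABA, 90 and 11 under ET and 44 and 16 under MeJA. With arrays centred and scaled, AT1G54010 lost its call under BABA (0.64) and for late against early (0.57), and BGLU44 gained one in MeJA against SA (-1.13). Quantile normalization took the BABA call of AT1G54010 (0.57), and the second spot alone that of PYK10 in MeJA against ET (1.33).

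With no time terms the values stayed and the spread grew. BGLU44 lost its calls under SA (-0.91) and in MeJA against INA (-1.44), BTH (1.63) and BABA (-1.35) and BTH against ET (-1.61), and PYK10 in MeJA against ET (1.44). Genes called were 54, 29 and 11 for MeJA against INA, BTH and ET, 45, 20 and 9 for BTH against SA, INA and ET, and 48 for BABA against BTH. With the compared agents fitted alone, on fewer samples, the same BGLU44 and PYK10 contrasts lost their calls, as did BGLU44 under MeJA (-1.79) and AT1G54010 under BABA (0.72), while BGLU44 under SA kept its call. Genes called were 70, 79, 59 and 45 for INA, BABA, ET and MeJA against untreated, 44, 29, 62 and 13 for MeJA against INA, BTH, BABA and ET, 41, 21 and 5 for BTH against SA, INA and ET, and 29 for BABA against BTH.

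Without the 2 h conditions, calls were lost for BGLU44 under SA (-0.60) and in MeJA against INA (-1.19) and BABA (-1.10), and gained for PYK10 under BABA (-0.89) and AT1G54010 under ET (0.81). Without 5 h they were lost for PYK10 under INA (-0.94) and in MeJA against ET (1.09), and gained for BGLU44 under BABA (-0.99) and in MeJA against SA (-1.48) and against the mean of the others (-0.81), with 40 genes called for MeJA against BTH and 22 against ET. Without 10 h they were lost for PYK10 under BTH (-1.06) and in MeJA against ET (1.18), with 39 genes called for MeJA against BTH, 19 against ET and 23 for BTH against ET. Without 24 h, AT1G54010 lost its BABA call (0.44).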
